A study of Mus musculus with 6 samples.

Results

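Collagens VI, VIII, XII, XIV and XVI are some of the network-forming and fibril-associated collagens of muscle connective tissue. They were examined by RNA-seq in cultured NOR-10 cells, fibroblasts of a line derived from mouse skeletal muscle. The 10 genes were chosen by symbol (Col6a1, Col6a2, Col6a3, Col6a5, Col6a6, Col8a1, Col8a2, Col12a1, Col14a1 and Col16a1), and all 10 were found among the 34745 genes of the deposited table. Control cells (n = 3 libraries) received PBS, and treated cells (n = 3 libraries) were kept in 20 mg/mL D-gal for 3 days, the treatment with which the study induces fibroblast senescence. Both groups are the same unmodified cell line, grown in culture without muscle fibers, and no source used here says whether the libraries came from separate cultures, so p-values measure the spread between these libraries. A control library held 16876087 to 20830349 counts and a D-gal library 13759108 to 15157064. Fibroblast genes were high in every library (Pdgfra had 8307 to 12742 counts), although the fibroblast markers Lum and Fap had at most 5 counts. Of the markers of other cell types, Pax7, Myf5 and Myod1 (muscle stem cells), Cldn5 (endothelium), Epcam (epithelium), Adipoq (adipocytes) and Foxd3 (Schwann cells) were at 0 counts in all libraries, whereas other genes of the same lists were detected, as given beside the collagen results. Macrophage genes stood out in control replicate 1, where Csf1r had 141 counts against 38 and 16 in the other control libraries and 13 to 25 in treated cells. Without that library the log2 fold changes described below were -1.32 for Col16a1, -0.71 for Col6a3, -0.41 for Col6a1, -0.33 for Col6a2 and 0.22 for Col12a1, with each call kept. In bulk RNA, fewer cells making a transcript and less transcript per cell cannot be told apart.

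Collagen VI is assembled inside the cell from an α1, an α2 and usually an α3 chain into a short triple helix that forms beaded microfibrils around cells. It is made in muscle mainly by interstitial fibroblasts, and mutations in its main chains cause Bethlem and Ullrich muscular dystrophies. Collagen VIII forms sheet-like networks. Collagens XII and XIV decorate the surface of collagen I fibrils as homotrimers and link them to other matrix proteins, and collagen XVI belongs to the same fibril-associated class.

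These genes changed in both directions with D-gal, as did the genes tested as a whole. Col16a1 and the 3 main collagen VI chains were lower in treated cells, Col12a1 was higher, and Col8a1, Col8a2 and Col14a1 did not pass the test. Col6a5 and Col6a6 were too low to be tested. Of the 10 genes, 8 passed the filter on low counts, which keeps genes with enough reads in 3 or more libraries and does not look at the difference between the groups. At an adjusted p-value under 0.05 in edgeR's quasi-likelihood test, 5 of the 8 were called, against 34.8% of all 13407 genes tested. Of the 5 called, 4 were lower, against 17.8% of all genes, and 1 was higher, against 16.9%. The 5 called genes had 621 counts or more in every library and the 3 not called had at most 197. The share over all genes is not matched for depth. When a 2-fold change (1 on the log2 scale, the fold criterion) was also required, Col16a1 alone was called, 1 gene of 8 against a background of 4.21% (2.37% higher and 1.83% lower). At a limit of 1.5-fold, 2 of the 8 were called, Col16a1 and Col6a3, against 10.2% of all genes (5.41% higher and 4.78% lower). The groups did not overlap in 6 of the 8 genes, against 49.1% of all genes tested. The median log2 fold change of the 8 genes was -0.23, while that of all genes tested was 0.00363.

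**Figure D1:**
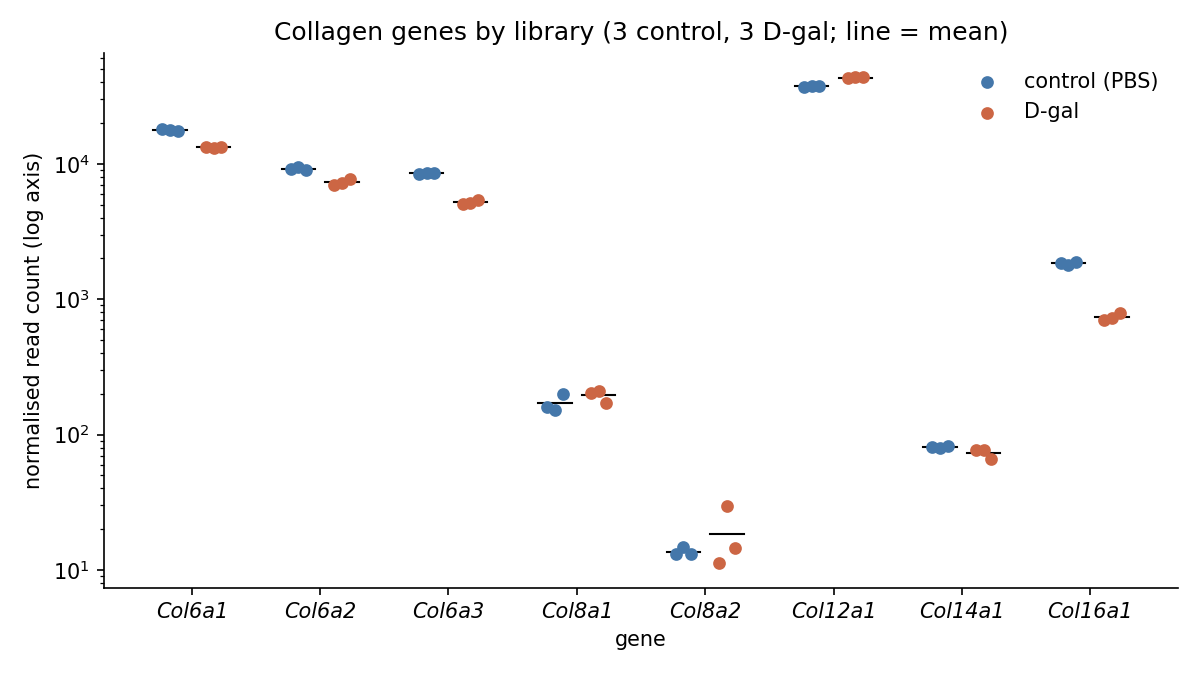
Normalised read counts (log axis) of the 8 collagen genes tested, with 1 point per library for the control (blue, n = 3) and D-gal (orange, n = 3) groups and a line at each mean. The D-gal points of Col16a1, Col6a3, Col6a1 and Col6a2 lie below all control points, those of Col12a1 lie above them, and those of Col8a1 and Col8a2 overlap. The D-gal points of Col14a1 also lie below its control points, although its change did not pass the test.

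To show the promoters of the genes that fell, the 300 bases from 250 before to 50 after the transcription start are given for Col6a1, Col6a2, Col6a3 and Col16a1, from RefSeq on GRCm38.p6. Of the 10 genes, 8 were matched in that table (all but Col12a1 and Col14a1), and the start nearest to the deposited 5′ end of the gene was used. Capitals mark motif matches on either strand. The motifs searched were the TATA box with the letters TATAAA, the GC box with the letters GGGCGG, the CCAAT box, the AP-1 site with the letters TGANTCA and the start of the TonE site, bound by NFAT5, with the letters TGGAAA.
Col6a1, chr10:76725995-76726294, minus strand: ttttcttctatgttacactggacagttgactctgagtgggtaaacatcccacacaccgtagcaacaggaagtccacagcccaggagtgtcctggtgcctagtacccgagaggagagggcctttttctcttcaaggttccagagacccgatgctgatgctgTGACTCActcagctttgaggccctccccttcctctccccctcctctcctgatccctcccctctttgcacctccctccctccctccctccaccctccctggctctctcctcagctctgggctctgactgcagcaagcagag
Col6a2, chr10:76623581-76623880, minus strand: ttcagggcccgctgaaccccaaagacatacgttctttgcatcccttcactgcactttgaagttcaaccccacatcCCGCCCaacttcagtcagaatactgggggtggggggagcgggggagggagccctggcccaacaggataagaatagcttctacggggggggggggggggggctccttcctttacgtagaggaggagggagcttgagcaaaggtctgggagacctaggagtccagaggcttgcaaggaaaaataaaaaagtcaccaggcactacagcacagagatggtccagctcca
Col6a3, chr1:90843922-90844221, minus strand: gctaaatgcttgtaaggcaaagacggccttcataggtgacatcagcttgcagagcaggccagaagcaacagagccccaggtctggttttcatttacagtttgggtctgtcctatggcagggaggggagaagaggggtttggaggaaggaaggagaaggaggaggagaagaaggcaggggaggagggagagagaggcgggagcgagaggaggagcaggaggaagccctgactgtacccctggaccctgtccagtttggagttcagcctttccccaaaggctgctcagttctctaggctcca
Col16a1, chr4:130047590-130047889, plus strand: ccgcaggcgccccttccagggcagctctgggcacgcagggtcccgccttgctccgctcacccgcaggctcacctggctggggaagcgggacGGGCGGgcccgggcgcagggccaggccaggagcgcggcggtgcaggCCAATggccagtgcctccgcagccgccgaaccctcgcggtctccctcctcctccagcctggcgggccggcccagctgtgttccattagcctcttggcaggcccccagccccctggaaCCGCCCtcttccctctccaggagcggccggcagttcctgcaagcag

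The promoters of the genes that fell were not alike in these letters. The Col16a1 window held 2 GC boxes and 1 CCAAT box, the Col6a2 window 1 GC box and the Col6a1 window 1 AP-1 site, whereas the Col6a3 window held none of the motifs. Of all 32851 promoter windows in the table, 35.7% held a GC box, 37.4% a CCAAT box, 7.81% an AP-1 site, 13.6% a TATA box and 21.4% the TonE letters. The GC content was 74.3% in the Col16a1 window and between 56.3% and 57.3% in the windows of the collagen VI chains, beside a median of 52.7% over the table. Among the 8 collagen promoters matched, a TATA box was in none and the TonE letters were in Col8a2 alone. The promoters of Col12a1 and Col14a1 were not searched. A match is a description of the letters and not a bound site.

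Col16a1 (ENSMUSG00000040690, chromosome 4, 130047840 to 130099283, plus strand, GRCm38) encodes the α1 chain of collagen XVI, a fibril-associated collagen found near basement membranes and in fibrillin microfibrils. Its normalised counts were 1847, 1789 and 1874 in control cells and 697, 721 and 792 in treated cells. The lowest control value was more than the highest D-gal value by a wide margin, and the libraries within each group lay close together. The mean was 1837 ± 43.4 (SD, n = 3) with PBS and 736 ± 49.3 with D-gal, so the transcript was 2.49-fold lower. On the log2 scale the change was -1.32 (standard error 0.06, 95% interval -1.45 to -1.19, adjusted p = 4.7e-06 from edgeR). By p-value the gene ranked 33 among the 13407 genes tested.

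For collagen VI, Col6a3 (ENSMUSG00000048126, chromosome 1, 90765923 to 90843971, minus strand) fell most. It encodes the large α3 chain, whose C-terminal fragment is known as endotrophin. Normalised counts were 8452, 8550 and 8511 in control cells and 5076, 5153 and 5386 in treated cells. The control libraries varied by 0.579% of their mean (coefficient of variation) and the D-gal libraries by 3.1%, with no overlap. Its log2 fold change was -0.71 (standard error 0.03, 95% interval -0.78 to -0.63, adjusted p = 6.2e-06 from edgeR) and the level fell by 38.8%. The fall is short of the fold criterion, but past a limit of 1.5-fold.

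Col6a1 (ENSMUSG00000001119, chromosome 10, 76708792 to 76726168, minus strand) encodes the α1 chain. It had 17940, 17917 and 17361 normalised counts in control cells and 13332, 13160 and 13368 in treated cells. All D-gal values lay within a narrow range below the control values. The change on the log2 scale was -0.42 (standard error 0.03, 95% interval -0.48 to -0.36, adjusted p = 2.1e-05 from edgeR).

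Col6a2 (ENSMUSG00000020241, chromosome 10, 76595762 to 76623630, minus strand), the gene of the α2 chain, lies next to Col6a1 on the same strand, 85161 bp away with no coding gene between them. Its normalised counts were 9111, 9424 and 8942 in control cells and 7011, 7155 and 7784 in treated cells. D-gal replicate 3 was the highest of its group and still below every control library. The log2 fold change was -0.32 (standard error 0.04, 95% interval -0.43 to -0.22, adjusted p = 9.8e-04 from edgeR).

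**Figure D2:**
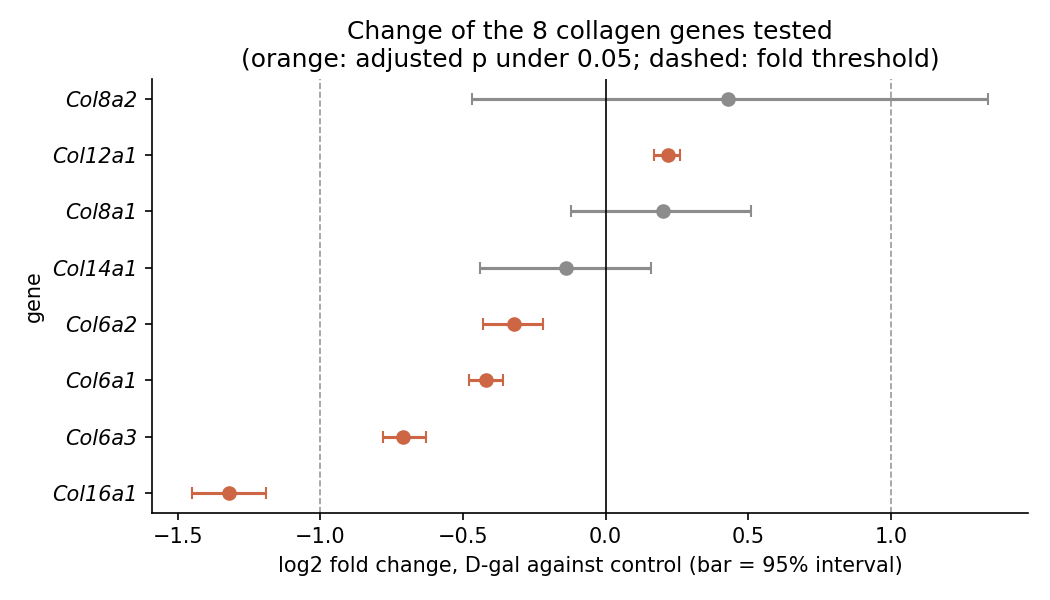
Log2 fold change of the 8 collagen genes tested, D-gal against control, with the 95% interval of the edgeR fit (n = 3 per group); orange marks an adjusted p under 0.05 and dashed lines a log2 fold change of 1 in size. Only Col16a1 (-1.32) lies past a dashed line, and the intervals of Col8a1, Col8a2 and Col14a1 cross 0.

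Of 15 fibroblast markers, 13 were tested, of which 7 fell, 2 rose and 4 were not called, beside 17.8% of all genes lower and 16.9% higher. Their summed normalised counts were 154394 to 158665 with PBS and 112056 to 117796 with D-gal. Col1a1 (-0.71), Col1a2 (-0.97) and Thy1 (-0.66) fell on the log2 scale and Pdgfrb rose by 0.19, while the fibroblast receptor gene Pdgfra had a change of -0.08 (adjusted p = 0.0679 from edgeR).

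Markers of other cell types also differed. Pericyte and smooth muscle markers summed to 1357 to 1402 normalised counts with PBS and 1846 to 2078 with D-gal. Of the 6 listed, 3 rose (Notch3, Cnn1 and Myh11), Rgs5 fell, and Kcnj8 and Cspg4 had too few counts to be tested. Epithelial markers summed to 118 to 142 with PBS and 29.5 to 43.8 with D-gal, nearly all of it from Cdh1 (E-cadherin), which fell by 1.79 on the log2 scale and was the 1 gene of 6 tested. Endothelial markers summed to 75.9 to 90.6 and 51.8 to 56.8, and of the 3 of 6 tested only Tek fell (-1.02, adjusted p = 0.0342 from edgeR). Skeletal muscle markers summed to 131 to 133 and 104 to 111, and of the 3 of 10 tested only Des fell (-0.78, adjusted p = 0.00898 from edgeR). No gene was called among adipocyte markers (2 of 6 tested, 284 to 300 with PBS and 239 to 330 with D-gal, mostly Pparg), leukocyte markers (2 of 5 tested, 68.7 to 300 and 71.8 to 92.8) or Schwann cell markers (1 of 6 tested, 54 to 73.4 and 62.8 to 103). The part of these markers in the collagen changes was not tested.

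Among the collagen VI chains that join in 1 molecule, the Col6a3 transcript fell more in these libraries than those of Col6a1 and Col6a2. Ratios between chains were taken within each library, as reads per kilobase of distinct annotated exon sequence, so that they do not depend on library scaling. The ratio of Col6a3 to Col6a1 was 0.172, 0.175 and 0.179 in control cells and 0.139, 0.143 and 0.148 in treated cells. Against Col6a2, Col6a3 stood at 0.646, 0.631 and 0.662 in control cells and at 0.504, 0.501 and 0.482 in treated cells. Neither ratio overlapped between the groups, and the α3 transcript was the lower one in each. The log2 ratio of Col6a3 to Col6a1 changed by -0.29 (standard error 0.03) and that of Col6a3 to Col6a2 by -0.38 (standard error 0.03). For both, the two-sided exact permutation test gave p = 0.1, the smallest that 3 against 3 allows, and 0.167 after Benjamini-Hochberg adjustment over the 5 pairs compared.

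By contrast, the ratio of Col6a2 to Col6a1 was 0.267, 0.277 and 0.271 in control cells and 0.277, 0.286 and 0.306 in treated cells. The highest control value and the lowest D-gal value met. The log2 difference was 0.09 (standard error 0.05, exact permutation p = 0.2, adjusted p = 0.25), which does not show that the neighbouring genes changed alike. The levels of the ratios depend on the gene length assumed, while their changes between the groups do not. Scaled to the longest coding transcript instead, the average ratio of Col6a2 to Col6a1 was 0.455 with PBS and 0.485 with D-gal. That of Col6a3 to Col6a2 was 0.428 with PBS and 0.328 with D-gal. Summed over the 3 chains, in reads per kilobase scaled to the effective library size after TMM normalization (RPKM), the level was 349 ± 5.9 RPKM (SD, n = 3) with PBS and 259 ± 4.66 RPKM with D-gal. All D-gal sums (256 to 264) lay below all control sums (343 to 354), with an exact permutation p of 0.1, the smallest possible.

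**Figure D3:**
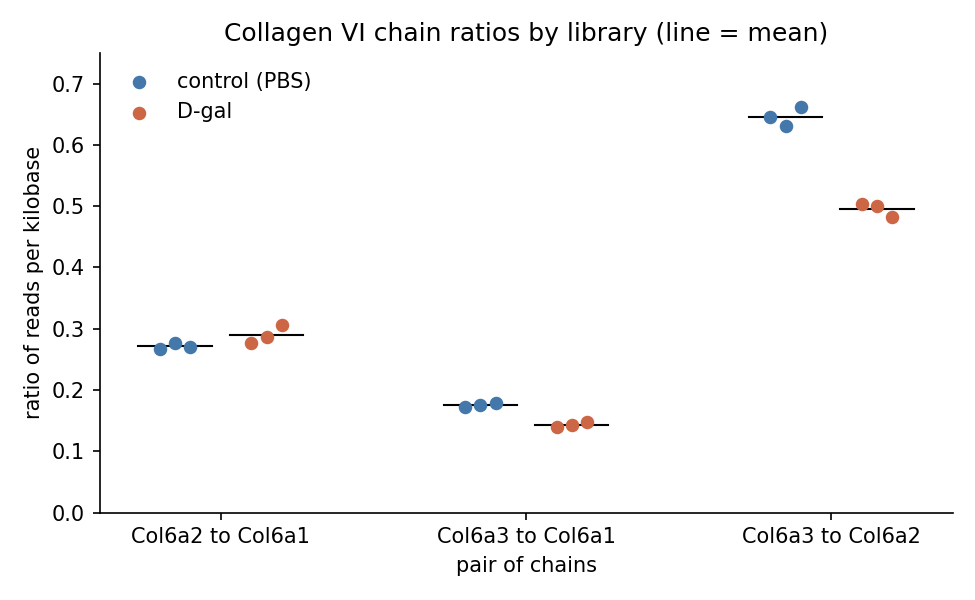
Ratios of reads per kilobase between collagen VI chains (linear axis from 0), with 1 point per library and a line at the mean of each group (n = 3). The ratios of Col6a3 to Col6a1 and to Col6a2 are lower in every D-gal library, whereas those of Col6a2 to Col6a1 overlap.

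The other collagen VI chains of the group were close to undetected. Col6a5 (ENSMUSG00000091345) and Col6a6 (ENSMUSG00000043719), which can take the place of α3, lie 27909 bp apart on chromosome 9. Col6a5 had 5, 3 and 0 counts in control cells and 0 in every D-gal library. Col6a6 had a single count, in D-gal replicate 3. A count of 0 allows up to 3 counts in a library, or 0.146 to 0.215 CPM (counts scaled to the effective library size), which covers counting error only. Both groups were at or near this limit, so no difference was detectable at this depth, and no fold is given. The transcripts of Col6a5 share 3.98% and those of Col6a6 share 4.31% of their 31-base words with other annotated genes, so single reads there are uncertain.

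Col12a1 (ENSMUSG00000032332, chromosome 9, 79598991 to 79718831, minus strand) went the other way. It encodes collagen XII, which bridges collagen I fibrils and is needed for muscle and connective tissue integrity. Normalised counts were 37164, 37344 and 37248 in control cells and 42997, 43408 and 43547 in treated cells. The libraries of a group differed by less than 1% of their mean (coefficients of variation of 0.242% and 0.661%), and all D-gal values lay above all control values. A spread from 3 libraries is itself uncertain, and that of the control group is smaller than counting error alone would give. The log2 fold change was 0.22 (standard error 0.02, 95% interval 0.17 to 0.26, adjusted p = 1.4e-04 from edgeR), a rise of 16.3%.

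Col14a1 (ENSMUSG00000022371, chromosome 15, 55307750 to 55520803, plus strand), the gene of the related collagen XIV, was far lower. It had 81, 79.1 and 81.8 normalised counts in control cells and 76.3, 76.4 and 66.3 in treated cells. All D-gal values were below the control values, but the change of -0.14 on the log2 scale did not pass the test (standard error 0.13, 95% interval -0.44 to 0.16, adjusted p = 0.445 from edgeR). The log2 ratio of Col14a1 to Col12a1 changed by -0.36 (standard error 0.07), with no overlap between the groups (exact permutation p = 0.1, adjusted p = 0.167). The standard error of this ratio rests only on the spread of 3 libraries per group and is below the 0.13 of Col14a1 itself. Col14a1 had 55 to 97 counts per library, so the precision of the ratio may be overstated.

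The chains of collagen VIII did not pass the test. Col8a1 (ENSMUSG00000068196, chromosome 16, 57624258 to 57754737, minus strand) had 161, 152 and 199 normalised counts in control cells and 202, 210 and 172 in treated cells. The groups overlapped through control replicate 3 and D-gal replicate 3, and the log2 fold change of 0.20 had a 95% interval from -0.12 to 0.51 (adjusted p = 0.303 from edgeR). Col8a2 (ENSMUSG00000056174, chromosome 4, 126286793 to 126314330, plus strand) had 15, 18 and 13 counts in control cells and 10, 27 and 12 in treated cells. D-gal replicate 2 alone lay above the others. The log2 fold change of 0.43 (adjusted p = 0.436 from edgeR, standard error 0.39) became -0.09 without that library, so no direction was established. Nor did the ratio of Col8a2 to Col8a1 differ beyond its spread, with a log2 difference of 0.11 (standard error 0.42, exact permutation p = 0.9).

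The levels spanned a wide range when scaled to length. In control cells, Col6a1 had 241 ± 4.47 RPKM (SD, n = 3), higher than 98.6% of the genes tested. Col12a1 followed with 146 ± 0.353, then Col6a2 with 65.5 ± 1.75, Col6a3 with 42.4 ± 0.245 and Col16a1 with 16.2 ± 0.383. Col8a1 (1.3 ± 0.19), Col14a1 (0.685 ± 0.0116) and Col8a2 (0.181 ± 0.0122) were much lower. Apart from Col6a5 and Col6a6, no neighbours in this order had overlapping ranges in control cells. In the D-gal group the order was the same for the first 8 genes, but Col6a1 (181 ± 1.52) and Col12a1 (169 ± 1.12) came close. When scaled to the longest coding transcript instead, Col12a1 stood above Col6a1 in treated cells (224 against 193 on average) and below it in control cells (193 against 258). The order of these leading genes in treated cells therefore depends on the gene length assumed, while each gene's change between the groups does not.

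Of the summed reads per kilobase of all 44 collagen genes examined, the 10 genes held 31.7% to 32.7% in control cells and 30.4% to 30.9% in treated cells, with no overlap. Their summed level fell by 14.8%, from 513 ± 5.48 to 437 ± 5.63 RPKM (SD, n = 3), and that of all 44 genes went from 1596 ± 16.2 to 1427 ± 7.48 RPKM. Within the pool, the collagen VI chains went from 21.9% ± 0.431 (SD, n = 3) to 18.2% ± 0.239, and Col12a1 from 9.14% ± 0.0716 to 11.9% ± 0.0833. None of these overlapped between the groups (exact permutation p = 0.1, the smallest possible). Fibrillar collagens went from 46.9% ± 0.54 to 36.8% ± 0.78 of the pool and the remaining collagen genes, led by Col4a1 and Col4a2 of the basement membrane, from 20.9% ± 0.445 to 32.5% ± 0.727. Since shares add up to the whole, a lower share of one class raises the others. The summed levels and shares also rest on the distinct exon length taken for each gene.

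**Figure D4:**
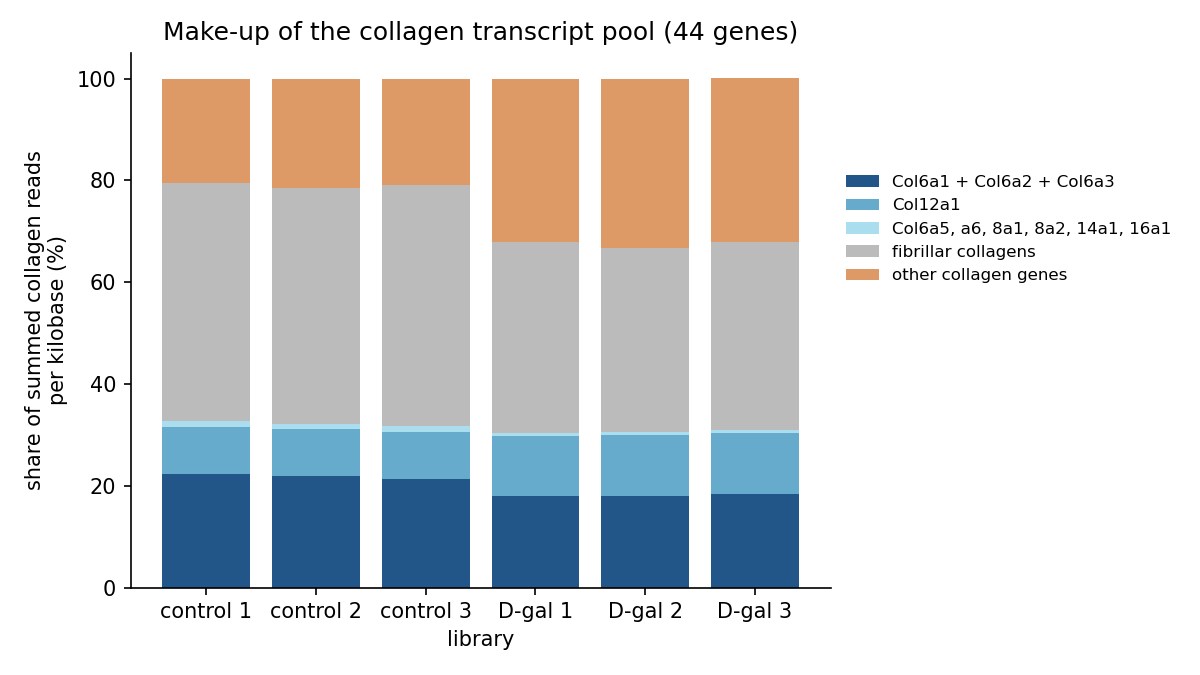
Share (%) of each class in the summed reads per kilobase of 44 collagen genes, as stacked bars for the 3 control and 3 D-gal libraries. The collagen VI chains (dark blue) fall from 21.9% to 18.2% on average while Col12a1 (mid blue) rises from 9.14% to 11.9%, and the 10 genes together hold 31.7% to 32.7% in control and 30.4% to 30.9% in D-gal libraries.

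Genes that act with these collagens were then read from the same fit. At the adjusted p-value, 34.8% of all genes tested were called, 16.9% higher and 17.8% lower. The counts of each list below are to be read beside these shares. Among receptors, 10 of 14 were tested, of which 3 were higher and 3 lower at the adjusted p-value, with a median log2 fold change of 0.08. Itga1, whose product forms a collagen-binding integrin with the Itgb1 product, had 428, 426 and 374 counts in control cells and 756, 651 and 642 in treated cells. On the log2 scale it rose by 1.09 (standard error 0.08, adjusted p = 4.9e-05 from edgeR). Antxr2, which encodes a receptor involved in collagen VI uptake, and Ddr2, a receptor tyrosine kinase for fibrillar collagen, were chosen after their values were seen. Antxr2 rose by 0.93 (standard error 0.05) and Ddr2 fell by 0.52 (standard error 0.03) on the log2 scale, both with an adjusted p-value under 0.05.

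Matrix partners of collagens VI, XII and XIV were mostly lower. Of 17 tested, 9 fell, 1 rose and 7 were not called, with a median log2 fold change of -0.24. Fn1 (fibronectin) went from 112079 ± 2407 normalised counts (SD, n = 3) with PBS to 46568 ± 2564 with D-gal, which is -1.27 on the log2 scale. The small proteoglycans Dcn (-1.42, standard error 0.16) and Fmod (-1.38, standard error 0.10), which bind collagen fibrils, and Fbln1 (-1.25, standard error 0.26) also passed the fold criterion. Vwf (von Willebrand factor), named after its values were seen as the 1 gene that rose, went from 8 to 15 counts in control cells to 18 to 45 in treated cells.

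All 11 fibrillar collagen genes were called at the adjusted p-value, 5 higher and 6 lower, although 7 were called without control replicate 2. Col3a1 fell by 1.18 and Col27a1 rose by 1.15 on the log2 scale. Of the 13 other collagen genes tested, 3 rose and 4 fell, and Col20a1, a fibril-associated collagen like Col16a1, fell by 1.08. When any 1 control replicate was left out, 6 rather than 7 of the 13 were called. Col6a4, a further collagen VI chain of the mouse, had 6 to 21 counts in control cells and 7 to 9 in treated cells and did not pass the filter.

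Of 22 genes of collagen synthesis and secretion tested, 5 rose, 5 fell and 12 were not called, and none passed the fold criterion. Plod2, a lysyl hydroxylase, rose by 0.53 (standard error 0.04) and P3h4, a partner of the hydroxylases, by 0.38 (standard error 0.03). For cleavage and turnover, 12 genes were tested, of which 2 rose and 8 fell. Without control replicate 3, 6 rather than 10 of them were called. The gelatinase gene Mmp2 fell by 0.51 (standard error 0.03) and Timp1, an inhibitor of these proteases, by 0.85 (standard error 0.08) on the log2 scale.

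**Figure D5:**
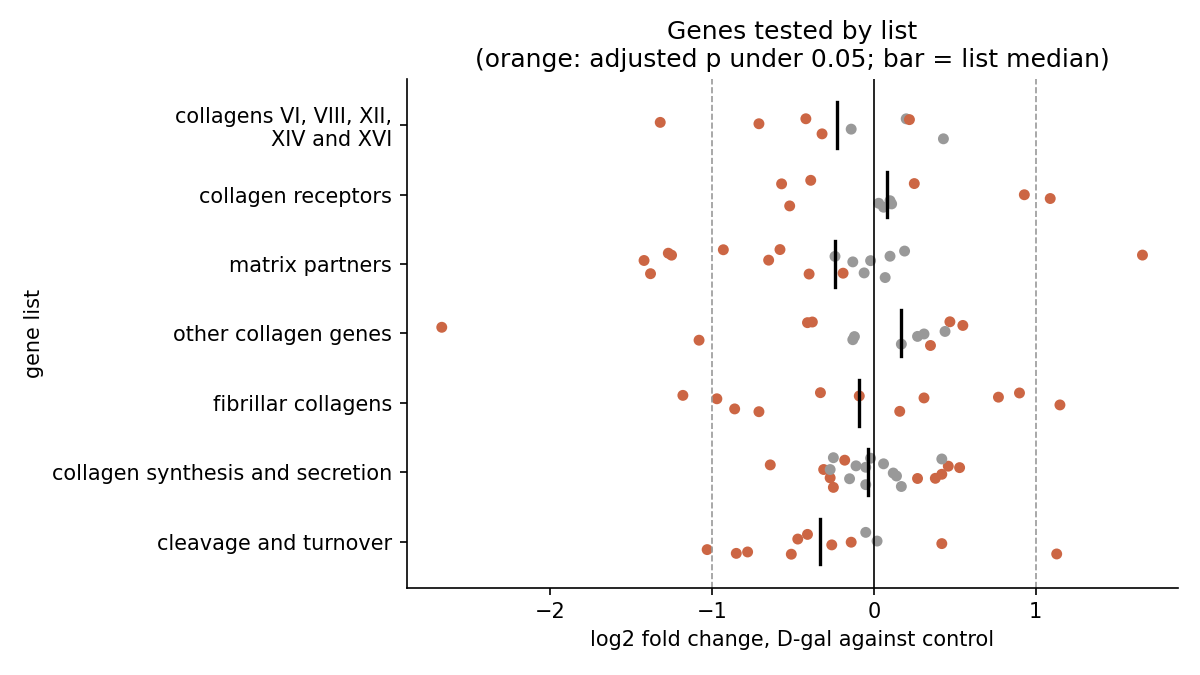
Log2 fold change (D-gal against control) of each gene tested in 7 gene lists, with orange points for an adjusted p under 0.05, a black bar at each list's median and dashed lines at a log2 fold change of 1 in size. The lists hold genes on both sides of 0, with medians between -0.34 (cleavage and turnover) and 0.17 (other collagen genes).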

How the data were processed

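RNA-seq libraries from NOR-10 cells (3 control, 3 D-gal) were grouped by the sample titles, and dose and duration were taken from the study's methods. The authors deposited, per gene and library, a count of reads without normalization and an FPKM value, which they scaled by gene length and library total. Reads were checked with FastQC and trimmed with Trimmomatic according to the methods, and the submitters' processing notes name HISAT2 2.0.4. The library kit is unclear, since the labels give an RNA-seq kit but the methods a small RNA one. The counting tool, use of strand and annotation are not given in the sources used here. Positions of 9 of the 10 genes are identical in GENCODE M21 (GRCm38). No other gene overlaps their exons, except 63 bases of Col6a6 on the other strand.

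Counts were analysed with edgeR 4.0.16 (R 4.3.3): filterByExpr, TMM normalization and the quasi-likelihood test over all 13407 genes kept, with Benjamini-Hochberg adjustment. Following the methods, calls required adjusted p below 0.05 together with a change of 2-fold or more. Normalised counts are counts scaled to the mean effective library size. RPKM and CPM values computed here use each library's effective size, and RPKM the distinct exon sequence of each gene. For single values, all 10 ways to part 6 libraries into 3 and 3 were enumerated (exact permutation test, two-sided). Intervals are from edgeR's standard error and degrees of freedom. The functions were tested on simulated data. No replicates were duplicates, as their chi-square values were 6.00 to 9.42 times the degrees of freedom.

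The 10 genes and the gene lists, written from general knowledge, were chosen with earlier results of these data known. In each list, up to 4 genes past both thresholds whose higher group had 100 counts or more per library were named, or else the 2 called genes with the smallest p. Genes named outside this rule are marker or collagen genes, or are said to be chosen after their values were seen. Alternatives were RLE size factors, no filter, at least 10 counts in every library, DESeq2 1.42.0, a replicate block, each replicate left out, limma 3.58.1 on log2(FPKM + 1), a limit of 1.5-fold and the deposited FPKM. The length of the longest coding transcript was added after the data had been seen.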

Additional observations from a re-analysis of the deposited data

How the results depend on the processing

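Of 96 repeats of the fold changes of the 8 collagen genes tested under 12 alternatives, 95 kept their direction and side of the adjusted p-value of 0.05. The exception was Col8a2, from -0.09 to 0.69 with each replicate left out, where -0.09 was the value without D-gal replicate 2. Ranges over the alternatives were -1.37 to -1.13 for Col16a1, -0.73 to -0.65 for Col6a3, -0.43 to -0.38 for Col6a1, -0.37 to -0.29 for Col6a2 and 0.21 to 0.25 for Col12a1, with adjusted p-values of at most 0.0056 in each. With a limit of 1.5-fold, 2 of the collagen genes were called. Of all genes tested, 120 rather than 564 passed both thresholds with limma on log2(FPKM + 1), a scale that understates changes of low genes. The log2 ratio of Col8a2 to Col8a1 ranged from -0.23 to 0.44 with each replicate left out, and the cause was not tested. It rests on 10 to 27 counts of Col8a2 per library. Replicates of the same number in the groups did not deviate together (correlations across genes of -0.0114, -0.00269 and 0.0277), and not every library correlated best with its own number. With the replicate block, 530 genes passed both thresholds and the same count of collagen genes was called (1, and 5 at the adjusted p-value alone).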

Other observations

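Collagen genes of basement membranes changed in both directions. Col4a1 and Col4a2, which encode the chains of the most common collagen IV trimer, were chosen after their values were seen. Col4a1 went from 18974 ± 913 normalised counts (SD, n = 3) with PBS to 27873 ± 557 with D-gal, a rise of 0.55 on the log2 scale (standard error 0.04, adjusted p = 3.5e-05 from edgeR). Col4a2 went from 15778 ± 286 to 21872 ± 296, a rise of 0.47 (standard error 0.03, adjusted p = 1.4e-05 from edgeR). Col15a1, which encodes collagen XV of the basement membrane zone, had 60, 53 and 59 counts with PBS and 10, 4 and 7 with D-gal. On the log2 scale it fell by 2.67 (standard error 0.32, adjusted p = 5.1e-04 from edgeR), although its level was low. Col15a1 passed the filter on low counts through its control libraries, so the size of its fall is uncertain. Col4a5 rose by 0.35, and Col4a6 (-0.41) and Col18a1 (-0.38) fell on the log2 scale, each with an adjusted p-value under 0.05 from edgeR. That of Col18a1 was 0.0365, the nearest of these to the limit.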
